A study of Rattus with 7 samples.

Results

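The 4 control libraries hold the baseline transcriptome of ventricular cardiomyocytes from rats that were not exposed to hypergravity. They were chosen by their label, as 4 of the 7 libraries of the series. The animals were male wild-type Wistar rats, given as 8 weeks old and kept in the same room as the centrifuged rats. By the study's methods the hearts were taken after 14 days of these control conditions. The methods give the age together with a weight below that reached after the 14 days, which places it before them. The hearts were perfused with collagenase on a Langendorff apparatus, the ventricles were shaken into single cells, and poly(A) RNA of the filtered suspension was sequenced. The labels number these libraries 4, 5, 6 and 7. The sequencing methods of the study describe independent hearts, but its statistics section names fewer control hearts for RNA-seq than the 4 libraries here, so that 1 rat per library is taken from the former. No sort or purification step followed the filtration, so that the suspension may hold other cells of the ventricle, and in such a bulk sample fewer cells of a type and less RNA per cell cannot be told apart.

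The adult ventricular myocyte is a large, non-dividing cell filled with myofibrils and mitochondria, and it beats continuously on ATP made by oxidative phosphorylation. Genes of the mitochondrial genome, of the sarcomere and of energy metabolism are known to take a large part of the polyadenylated RNA of such a cell. A small number of transcripts therefore sets the scale against which every other gene is read. The deposited count files give each gene only by its Ensembl identifier, and 0 of these identifiers could be paired with a name here. The genes are therefore described by abundance class, by rank and, for 4 of them, by identifier, and the cardiomyocyte markers that would check the label were not analysed here. Functional lists were likewise not analysed here.

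The libraries held 57783504 to 76416395 counts on genes. Of 23092 identifiers, 12547 (54.3%) had 10 or more raw counts in each of the 4 libraries, and these are the genes kept for every statement on variation. Another 4831 had at least 1 count without reaching that minimum, and 5714 (24.7%) had 0 counts in all 4 libraries. At these depths 10 counts stand for 0.131 to 0.173 CPM, which are counts scaled to a total of 1000000 per library, and a count of 0 allows up to 3 counts, or 0.0393 to 0.0519 CPM. The identifiers outside the 12547 took only 0.0247% to 0.0534% of the counts of a library. The number of genes with 10 or more counts was 13689, 13330, 13327 and 12825 in replicates 4, 5, 6 and 7. The lowest number belonged to replicate 7, although replicate 5 was the library with the fewest counts. After random thinning to the smallest total, the numbers were 13429, 13330, 13207 and 12766, in the same order as before. Replicate 7 thus detected the fewest genes at an equal total as well, although the share of the total left to genes below the leading ones still differed between libraries. All intervals and floors of this kind cover counting error only.

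The most abundant gene was ENSRNOG00000034234. It took 15.5%, 19.9%, 17.7% and 18.8% of the gene counts in replicates 4, 5, 6 and 7, a mean of 18.0% ± 1.90 (SD, n = 4). Replicate 4 had the lowest share and replicate 5 the highest. The gene of rank 2, ENSRNOG00000030700, took 4.99%, 6.13%, 6.27% and 5.36%, a mean of 5.69% ± 0.613 (SD, n = 4), with replicate 4 again lowest. The first gene collected 2.83 to 3.50 times as many counts as the second, depending on the library. These are shares of counts and not levels per length, since gene lengths were not used, so a long and a short transcript with equal counts would not be equally abundant.

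The genes of ranks 3 to 10 took between 4.23% and 1.69% of the counts on average. The leading positions were shared by all 4 rats. The same 10 genes formed the 10 most abundant in every library, and ranks 1 and 2 were held by the same 2 genes throughout. Below them the order shifted by a few places, as with the gene of mean rank 8, which stood at rank 6 in replicate 4, rank 8 in replicates 5 and 7 and rank 9 in replicate 6. Among the 100 most abundant genes of each library, 83 were common to all 4, out of 117 that reached this group in any of them. Among the 1000 most abundant, 815 were common to all, out of 1182. The upper end of the transcriptome was therefore held by largely the same genes in every rat, and the exchange between libraries lay further down.

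The 10 leading genes together took 42.1%, 48.7%, 47.2% and 46.8% of the gene counts in replicates 4, 5, 6 and 7. Replicate 4 stood below the other 3 libraries, which lay close to one another. The 100 leading genes took 61.1%, 67.4%, 66.6% and 66.7%, with replicate 4 again the lowest. In replicate 4 it needed 21 genes to reach 50% of the counts, against 11 in replicate 5 and 13 in each of replicates 6 and 7. To reach 90%, it needed 2875 genes in replicate 4 and 2133, 2208 and 2037 in replicates 5, 6 and 7. The effective number of genes, which is the exponential of the Shannon entropy of the shares and grows as counts spread more evenly, was 393, 234, 261 and 255. By each of these measures the counts of replicate 4 were spread over more genes than those of the other 3 rats. The largest total of the 4 also belonged to replicate 4. After thinning to the smallest total, the mean share of the 10 leading genes was 46.2%, as before. The other measures of this paragraph were not run on thinned counts.

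**Figure D1:**
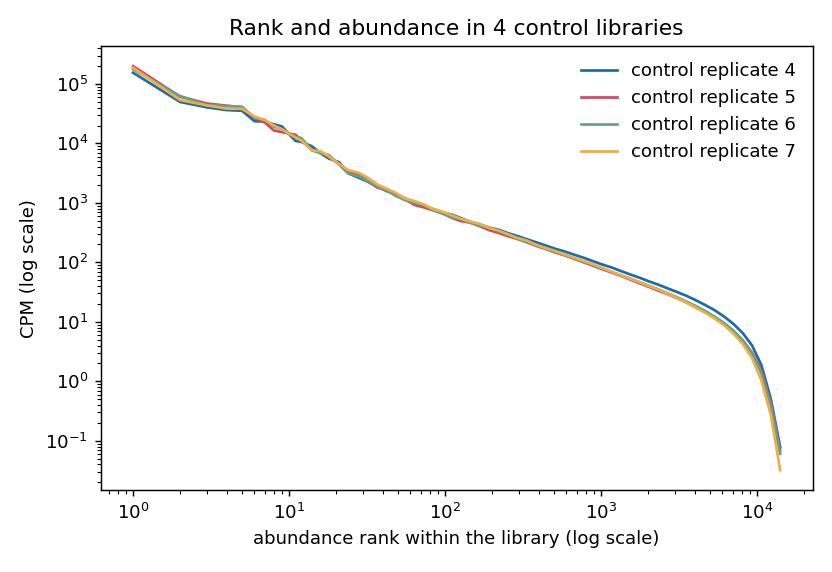
CPM of the gene at each abundance rank (both axes logarithmic) in the 4 control libraries, one line per library. The lines start between 154690 and 199420 CPM and run close together, with replicate 4 lowest at rank 1 and highest over the middle ranks.

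Grouped by mean CPM over the 4 libraries, 12 genes lay at 10000 CPM or above. These 12 genes, 0.0520% of the identifiers, took 44.2%, 51.2%, 49.7% and 49.2% of the counts in replicates 4, 5, 6 and 7. The 54 genes from 1000 to 10000 CPM took 14.1%, 13.7%, 14.1% and 14.7%. This second class had the smallest spread relative to its share, with a mean of 14.2% ± 0.422 (SD, n = 4). The 764 genes from 100 to 1000 CPM took 19.6%, 17.5%, 18.1% and 18.6%. The 5364 genes from 10 to 100 CPM took 19.0%, 15.2%, 15.7% and 15.4%. The first of these values, that of replicate 4, lay above the other 3, which were within 1 percentage point of one another. A further 5102 genes from 1 to 10 CPM took 2.94%, 2.26%, 2.21% and 1.96%. The 2499 genes from 0.1 to 1 CPM took 0.131%, 0.114%, 0.103% and 0.0710%. In both of these low classes replicate 4 held the largest share and replicate 7 the smallest. The share missing from the 12 leading genes of replicate 4 was found in the classes between 1 and 1000 CPM, and mostly in that from 10 to 100 CPM.

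**Figure D2:**
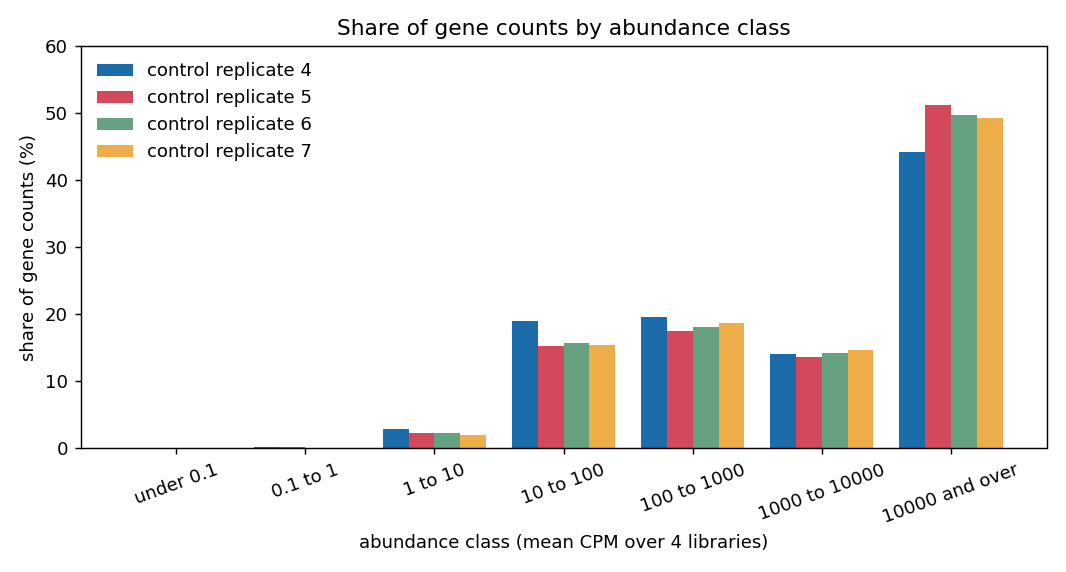
Share of gene counts (%) held by each abundance class, with one bar per control library and classes set by mean CPM. The 12 genes at 10000 CPM and over held 44.2% to 51.2% of the counts, and replicate 4 was lowest in that class and highest in the classes from 1 to 1000 CPM.

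Because CPM is relative to the total, these shares move the CPM of every other gene. The median CPM of the 12547 genes kept was 11.9, 8.999, 9.26 and 8.44 in replicates 4, 5, 6 and 7. The value of replicate 4 was the highest and that of replicate 7 the lowest. With the 10 leading genes left out of the total, the medians were 20.5, 17.5, 17.5 and 15.9, so that replicate 4 stayed highest and replicate 7 lowest. The trimmed mean of M-values (TMM) factors of edgeR, which scale the libraries on the bulk of the genes, were 1.21, 0.942, 0.975 and 0.904. After this scaling the median ratio of a gene to its mean over the libraries was 0.991 to 1.01, against 0.901 to 1.20 by library size.

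Rat-to-rat variation was measured by the coefficient of variation (CV, the SD over the mean, n = 4) of CPM in the 12547 genes kept. The median CV was 22.4%, with quartiles of 13.3% and 35.1%. Counting error alone gave a median of 3.92%, and 275 genes (2.19%) had a CV no larger than counting alone gives. A CV over 20% was found in 7027 genes (56%), over 50% in 1188 genes (9.47%) and over 100% in 26 genes (0.207%). A CV from 4 animals is imprecise, since under a normal distribution its 95% interval runs from 0.566 to 3.73 times the value. The median CV was 16.5% without replicate 4, and 17.8% with TMM factors. The common biological CV (BCV) of edgeR, which takes out the counting error and uses TMM factors, was 26.4%.

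By library size, abundant genes varied less than rare ones. The 54 genes from 1000 to 10000 CPM had a median CV of 9.61%, and the 12 genes above them of 10.4%. The median was 13.0% from 100 to 1000 CPM, 17.3% from 10 to 100 CPM, 27.8% from 1 to 10 CPM and 38.5% from 0.1 to 1 CPM. No gene above 1000 CPM had a CV over 50%, whereas 28.4% of the genes kept from 0.1 to 1 CPM did. With the genes split into 10 equal groups by mean CPM, the median CV fell from 38.6% in the lowest to 13.0% in the highest, and the part given by counting alone fell from 16.01% to 1.08%. The tagwise BCV of edgeR, which is drawn towards the trend of all genes, fell from a median of 35.7% in the lowest of these groups to 18.1% in the eighth and was 18.7% in the highest. Its lowest median thus lay in the eighth group, which begins at 21.1 CPM, while the CV by library size went on falling. By abundance class, the median tagwise BCV was 35.7% from 0.1 to 1 CPM and 26.6% from 1 to 10 CPM. It was 19.0%, 18.8%, 19.1% and 19.9% in the classes from 10 CPM upward, in rising order.

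**Figure D3:**
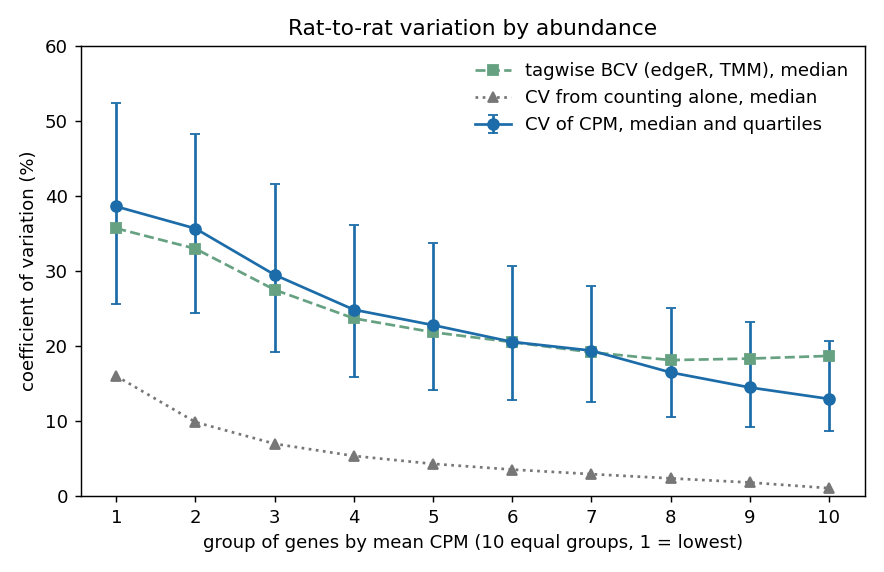
Coefficient of variation (%) over 4 rats in 10 equal groups of the 12547 genes by mean CPM. Circles give the median CV of CPM with quartiles as bars, squares the median tagwise BCV of edgeR and triangles the CV from counting alone. The median CV fell from 38.6% to 13.0%, and counting alone stayed under it in every group.

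The leading genes were among the steadier ones on the CPM scale. The 10 most abundant genes had a CV of 5.18% to 16.5%, and the 30 most abundant of 4.02% to 20.03% with a median of 10.4%. The CV of ENSRNOG00000034234 was 10.6%, and 5.92% without replicate 4, and that of ENSRNOG00000030700 was 10.8%. With TMM factors the CVs over all 4 rats were 21.1% and 19.2%, since replicate 4, where both were lowest by CPM, was scaled down further. The steadiness of both thus depended on the scaling. Of the 10 most abundant genes, 6 were lowest in replicate 4 and 2 were highest there by library size. Among all genes kept, replicate 4 was lowest in 6.49% and highest in 65.7%.

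The steadiest genes by CPM were taken among the 1703 genes with a mean of at least 50 CPM. The 10 lowest CVs lay between 0.771% and 1.94%, in genes with means of 58.2 to 1682 CPM. The first of them had 59.8, 59.5, 60.2 and 60.6 CPM in replicates 4, 5, 6 and 7, which by library size is a spread below that of counting alone (1.59%). The fourth, the most abundant of the 10, had 1700, 1700, 1654 and 1672 CPM. The range between the highest and the lowest rat was at most 1.05-fold in these 10 genes by library size. With TMM factors, an alternative added after the values were seen, their CVs were 10.6% to 12.8% and the ranges 1.28-fold to 1.35-fold. A gene that is even by library size takes on the spread of the factors themselves, so this outcome was set by the scaling. The 10 genes were chosen for their small spread by library size, which is therefore a description only.

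The library that stood highest or lowest was not the same across abundance. By library size, replicate 4 was the highest of the 4 in 8249 genes (65.7%), and replicates 5 and 7 were the lowest in 4677 (37.3%) and 4577 (36.5%). With TMM factors replicate 4 was highest in 28.0% of the genes and lowest in 28.1%. These factors scale all genes of a library alike and bring the median ratios together. The change over all genes therefore follows from the scaling and says nothing on its excess by library size. From 1 to 10 CPM, replicate 4 was the library most often highest with TMM factors. It was highest in 35.8% of these genes and lowest in 18.2%. What remained with TMM factors was a gradient with abundance. Replicate 7 was the lowest library in 42.6% of the 1269 genes kept from 0.1 to 1 CPM and in 37.4% of the 5084 from 1 to 10 CPM. It was lowest in only 15.9% of the genes from 10 to 100 CPM and in 7.199% of those from 100 to 1000 CPM. In that last class it was the highest library in 57.1% of the genes, and among the 54 genes from 1000 to 10000 CPM in 77.8%. Among the 12 genes at 10000 CPM and over, replicates 5 and 7 were each highest in 41.7%, so that the rise for replicate 7 did not go on into this class. With TMM factors replicate 4 showed the reverse, and it was lowest in 56.02% of the genes from 100 to 1000 CPM and in 79.6% of those from 1000 to 10000 CPM. By library size replicate 4 also stood high less often and low more often in each class from 10 CPM upward. It was the highest library in 69.7%, 47.6%, 25.9% and 16.7% and the lowest in 4.90%, 17.1%, 33.3% and 66.7% of the genes kept from 10 to 100, from 100 to 1000, from 1000 to 10000 and at 10000 CPM and over. The class from 100 to 1000 CPM, where it was more often highest by library size and more often lowest with TMM factors, thus turned with the scaling. By library size, replicate 7 was the lowest library in 52.3%, 47.4%, 25.95%, 13.7% and 5.56% of the genes kept in the 5 classes from 0.1 to 10000 CPM, in rising order.

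In the 1188 genes with a CV over 50%, replicate 7 was the lowest library in 828 (69.7%), against 36.5% of all genes kept. These variable genes were mostly rare, with 1011 of the 1188 under 10 CPM, against 6353 of the 12547 genes kept. Among the genes under 10 CPM, replicate 7 was the lowest library in 70.8% of the variable genes against 48.4% of all genes kept, a smaller difference. From 10 CPM upward, it was the lowest in 63.3% of the variable genes against 24.2% of all genes kept, a larger difference. Replicate 5 was the highest in 405 (34.1%), against 15.5% of all genes kept. Replicate 4 was the highest in 608 (51.2%), which is below its 65.7% over all genes kept. In 704 of the 1188 (59.3%) the 2 highest libraries were replicates 4 and 5, against 27.8% of all genes kept. With TMM factors 915 genes had a CV over 50%, of which 818 were also among the 1188. Replicate 7 was then lowest in 523 (57.2%), against 26.7% of all genes kept, and replicate 5 highest in 518 (56.6%), against 25.4%. Replicate 4 was highest in 180 (19.7%), against 28.0%. Replicates 4 and 5 were the 2 highest in 52.0% of these genes, against 19.2% of all genes kept with TMM factors. Under both scalings, replicate 5 was highest and replicate 7 lowest in a larger share of the variable genes than of all genes kept, and replicate 4 was highest in a smaller one. By library size, the number of genes with a CV over 50% was 1117, 1555, 1661 and 807 without replicates 4, 5, 6 and 7 in turn. Each of these CVs rests on fewer libraries and is less precise, so these numbers cannot be set directly against 1188.

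**Figure D4:**
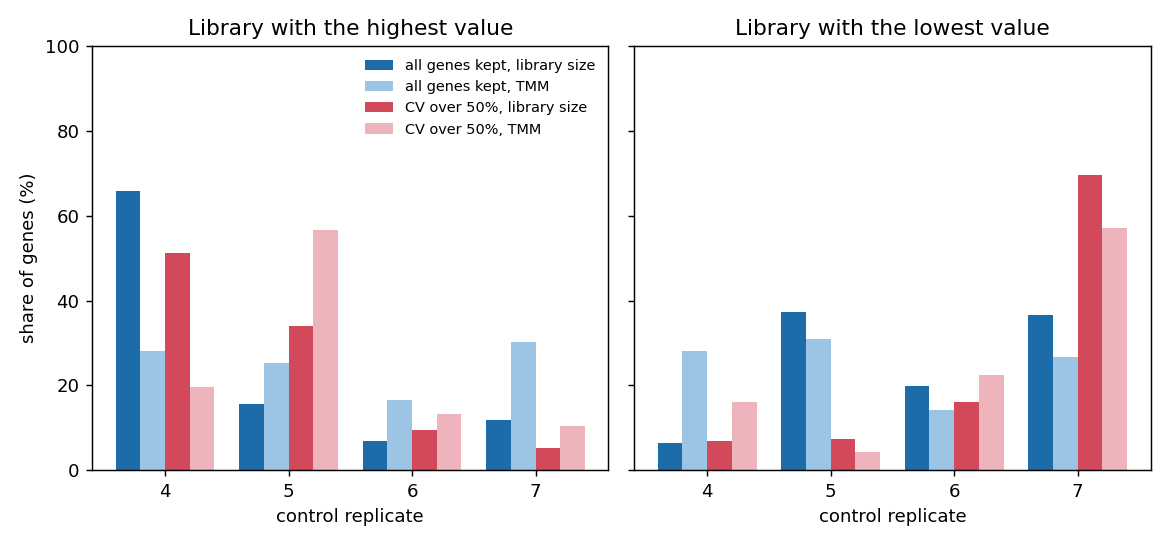
Share of genes (%) in which each control library had the highest value (left) or the lowest value (right). Dark and light blue bars are all genes kept by library size and with TMM factors, and dark and light red bars the genes with a CV over 50%. Replicate 4 was highest in 65.7% of all genes by library size and in 28.0% with TMM factors, and replicate 7 was lowest in 69.7% and 57.2% of the variable genes.

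Set side by side with TMM factors, any 2 control rats differed by a median of 0.22 to 0.37 on the absolute log2 scale. The smallest median difference was between replicates 4 and 6 and the largest between replicates 4 and 7. More than a 2-fold difference was seen in 5.59% of the genes between replicates 4 and 6, and in 13.1% and 13.2% between replicate 7 and replicates 4 and 5. Replicate 6 was the library nearest to replicates 4 and 7, with medians of 0.22 and 0.25, and replicate 5 had the same median, 0.30, to replicates 6 and 7. Of these, replicate 6 differed over 2-fold from replicate 5 in fewer genes, 7.50% against 13.2% for replicate 7. Replicate 4 differed over 2-fold from replicate 5 in still fewer, 6.46%, but at a larger median of 0.34. No 2 of these libraries were repeats of 1 library, the smallest chi-square of their counts being 67.5 per degree of freedom. This value cannot tell separate hearts from separate preparations of 1 heart, since both add spread beyond counting error.

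The most variable genes were taken among the 8262 genes kept with a mean of at least 5 CPM. The 25 highest CVs ran from 88.2% to 164%, and the highest and lowest rats of a gene differed 6.33-fold to 284-fold. The first was ENSRNOG00000029886, with 4.14, 117, 9.13 and 4.86 CPM in replicates 4, 5, 6 and 7, from 316, 6775, 603 and 302 counts. The second was ENSRNOG00000047098, with 3.89, 92.6, 7.54 and 2.96 CPM, from 297, 5352, 498 and 184 counts. Both genes were high in replicate 5 alone, second in replicate 6 and low in the other 2 rats, and their CVs were 164% each. Without replicate 5, the CVs were 44.6% and 50.5%. Even the lowest of these values rests on 184 counts, where counting error is small beside the difference.

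Other genes of the 25 separated the rats in pairs. The fourth had 59.6 and 119 CPM in replicates 4 and 6 but 0.692 and 0.419 CPM in replicates 5 and 7. The eighth had 23.3 and 15.7 CPM in replicates 5 and 6 but 0.144 and 0.386 CPM in replicates 4 and 7. Of the 25 genes, 11 had replicates 5 and 7 both above replicates 4 and 6. In 4, the fourth gene among them, replicates 4 and 6 both stood above replicates 5 and 7. The seventh and ninth of the 25 were also among these 4, but replicate 4 alone was high in them, at 48.9 and 26.7 CPM. Replicates 6 and 5 were close there, at 8.82 and 8.32 CPM and at 6.04 and 5.52 CPM. By library size, replicates 5 and 7 both stood above replicates 4 and 6 in 8.55% of all genes kept. The reverse was seen in 38.4%. With TMM factors these shares were 22.3% and 21.9%. The sixth gene was low in a single rat, with 0.173 CPM in replicate 5, from 10 counts, and 6.20, 2.88 and 20.6 CPM in replicates 4, 6 and 7. The eighteenth was the most abundant of the 25, with 175, 67.4, 135 and 561 CPM, and was highest in replicate 7.

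One order of the rats recurred among the 25. In 9 of them replicate 5 was highest, followed by replicate 7, replicate 4 and replicate 6. This order was seen in 340 of all genes kept (2.71%). In these 9 genes the CPM ran from 12.4 to 163 in replicate 5 and from 1.17 to 13.2 in replicate 6, a range of 9.15-fold to 36.3-fold. With TMM factors the same order held in 11 of the 25 genes and in 3.58% of all genes kept. Replicate 5 was the highest library in 16 of the 25 and replicate 6 the lowest in 13. By library size, replicate 6 was the lowest in 19.8% and replicate 5 the highest in 15.5% of all genes kept. This order was noticed after the values were seen.

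**Figure D5:**
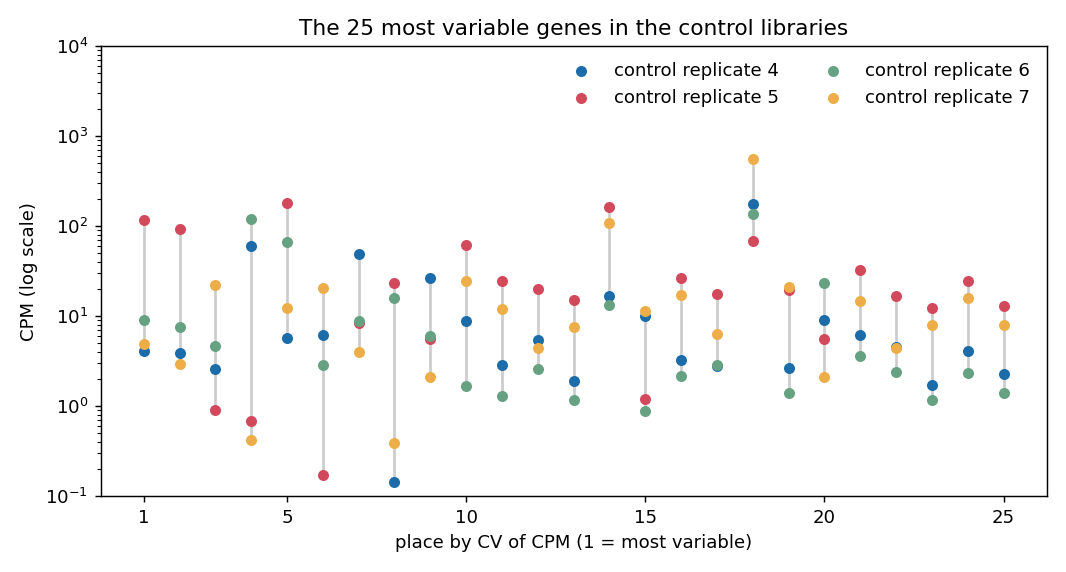
CPM (log scale) of the 25 genes with the highest CV among those with a mean of at least 5 CPM, ordered by CV, with one point per control library and a grey line from the lowest to the highest. Replicate 5 was the highest library in 16 of the 25 genes, and the ranges spanned 6.33-fold to 284-fold.

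Genes that fell into a high and a low set of rats were also counted without the minimum of 10 counts in each library, among the 11296 genes with a mean of at least 1 CPM. A gap of at least 10-fold between neighbouring libraries, with counts under 3 set to 3, was found in 19 genes (0.168%). Of these, 14 had under 10 counts in at least 1 library, so that the statements on CV above leave them out. Such a gene reaches a mean of 1 CPM only through the rats where it is high. A wide gap in these 14 therefore follows largely from the rule. In 9 of the 19 the rats split 2 against 2, in 6 a single rat was low and in 4 a single rat was high. The most frequent split set replicates 5 and 6 above replicates 4 and 7, in 7 genes. In these 7 the high rats had 1.92 to 23.3 CPM and the low rats 0 to 0.386 CPM, from 0 to 24 counts. No other split was found in more than 3 genes. Among all genes kept, whatever the gap, replicates 5 and 6 were the 2 highest in 4.21% by library size and in 8.39% with TMM factors. Most of the 7 genes were not among the genes kept. These shares are therefore of another set of genes and give no base for the 7. The gap rule was chosen after values were seen.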

How the data were processed

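RNA of isolated ventricular cardiomyocytes was sequenced in control and hypergravity rats, and the 4 control libraries were analysed here, grouped by the labels. The authors trimmed reads with Trimmomatic and Fastp, aligned them with HISAT2 to mRatBN7.2 and deposited raw counts per gene from HTSeq-count, over exons and without strand, so that overlapping and antisense genes cannot be separated. The annotation release is not given in the sources used here. The library kit is a stranded TruSeq assay by the labels and an NEB kit by the methods. The lines of unassigned reads, which held 9.52% to 10.03% of each library, were left out of totals. From the counts, CPM by library size, shares, ranks and CVs were computed (Python 3.11.15, pandas 2.3.3), with TMM factors and dispersions from edgeR 4.0.16 and DESeq2 1.42.0 in R 4.3.3, intercept only. The CV and BCV were tested on simulated data. With 1 group there is no contrast, and no test between groups was made. Dixon's criterion was used to mark single libraries that lay far from the others. Nothing states that the libraries were prepared on the same day, so the spread between them may be biological or technical.

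Genes were named by rank of mean share (the first 30, of which 2 by identifier) and by CV (the 25 largest among genes with at least 5 CPM, of which 2 by identifier, and the 10 smallest with at least 50 CPM). Members, lists and rules were chosen with earlier results of these data known. The planned functional classes, cell type markers, levels per length and promoter letters were not analysed here, because the identifiers were not paired with names, and the abundance classes took the place of the functional ones. The alternatives were other scalings, other count minimums, thinning to the smallest total, unassigned reads in the denominator and each library left out. Totals of 57783504 to 76416395 counts make the counting error of the leading shares negligible beside the spread between rats.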

Additional observations from a re-analysis of the deposited data

Results flagged for a closer look

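In 40 measures over the 4 control libraries, 10 had 1 library farther from the others than Dixon's 95% critical value for 4 samples allows, where chance marks about 1 in 20, or 2. Many of these measures overlap, since 7 of the 10 describe the same spread of counts over genes. All of those 7 concerned replicate 4. They were the shares of the 50, 100, 500 and 1000 most abundant genes, at 56.5%, 61.1%, 73.3% and 79.6%, the 597 genes that hold 75% of its counts, its effective number of 393 genes, and the share of 19.0% in the class from 10 to 100 CPM. Replicate 4 also had the lowest share of reads falling on more than 1 gene, at 2.49%, against 2.90% to 2.93% in the others. No batch is named in the labels for it.

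The other marks were those of the most variable genes, ENSRNOG00000029886 at 117 CPM and ENSRNOG00000047098 at 92.6 CPM in replicate 5, which were chosen for their spread. Across all genes kept, 623 (4.97%) had 1 library past the same critical value, close to the 1 in 20 of chance.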

How the results depend on the processing

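The number of genes kept, 12547, and the share of the most abundant gene stayed within their limits under each alternative run. The limits were 1.5-fold for counts of genes and, for values, the SD between rats or, for a median CV or BCV, the jackknife error over left-out libraries. With unassigned reads in the denominator, the share of the 10 leading genes was 41.6% against 46.2%, and that of the genes at 10000 CPM and over 43.8% against 48.6%. The median CV of 22.4% was 30.5% with no filter on counts and ran from 16.5% to 24.8% with 1 library left out, the lowest without replicate 4. The 1188 genes with a CV over 50% became 568 with a minimum of 50 counts and 5301 with no filter. Both changes came through the rare genes admitted or removed. With 1 library left out, the number ran from 807 to 1661, the highest without replicate 6. The CVs with 1 library left out rest on fewer libraries and are less precise. The common BCV of 26.4% was 30.04% by library size, 29.8% with no filter and 20.6% as the median of DESeq2, the cause of the last not being tested. Replicate 4 was the highest library in 65.7% of genes by library size and in 28.0% with TMM factors, which follows from the scaling. By library size the share reached 74.95% without replicate 5, but it rises by construction when another library is left out. Shares without the genes of the mitochondrial genome were not run, since they could not be named. No paired analysis was possible because a single group is described.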
